A study of Mus musculus with 12 samples.

Results

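The genes described here are the chemokine receptor Ccr2, 4 ligands of the CC family (Ccl2, Ccl5, Ccl6 and Ccl24) and 5 ligands of the CXC family (Cxcl1, Cxcl9, Cxcl10, Cxcl12 and Cxcl14), in the livers of mice exposed to vitamin D deficiency before birth. They were chosen by name, as 10 of the 52636 genes counted in each library, and 9 of the 10 passed the filter on low counts, a mean of at least 12 counts per library, that left 12453 genes. Ccl2 did not pass, with a mean count of 5.92. All mice were C57Bl/6J males killed at 16 weeks of age. The 6 VDD-F1 mice were born to dams kept on a vitamin D deficient diet from before mating until delivery, with a calcium gluconate supplement, and the 6 VDS-F1 mice to dams kept on a vitamin D sufficient diet. All dams received the sufficient diet from delivery, and all offspring received it after weaning, so that the contrast is of the maternal diet and not of the diet at the time of measurement. RNA came from the left lateral lobe, with 1 library per mouse. Which mice were littermates is not given in the sources used here, so the p-values measure the spread between these mice. The diet was given to the dams, and the tests treat each mouse as independent. Where mice shared a dam, the p-values may be too small.

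Chemokines are small secreted proteins that guide leukocytes along a concentration gradient. Ccr2 is the receptor by which classical, Ly6C-high monocytes leave the bone marrow and enter inflamed tissue, and Ccl2 is its main ligand. In the liver, monocytes that enter in this way can become macrophages beside the resident Kupffer cells, which carry little Ccr2. Stellate cells, endothelium, Kupffer cells and hepatocytes all secrete chemokines.

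The ligand families take their names from the spacing of the cysteines near the start of the mature protein, which lie side by side in CC ligands and are held apart by a single residue in CXC ligands. The coding strand around this pair is shown for all 9 ligands because the spacing is what places each gene in its family, with the cysteine codons in capitals. The sequences come from GENCODE M21 transcripts on GRCm38, and the letters run 5′ to 3′ along the gene. Ccl2 lies on the plus strand at chr11:82036494-82036523, Ccl5 on the minus strand at chr11:83529230-83529259, Ccl6 on the minus strand at chr11:83589374-83589403 and Ccl24 on the minus strand at chr5:135572653-135572682.
Ccl2: gccccactcaccTGCTGCtactcattcacc
Ccl5: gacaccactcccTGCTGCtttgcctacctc
Ccl6: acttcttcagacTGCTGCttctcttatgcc
Ccl24: atcccctcatctTGCTGCacgtcctttatt
The 5 CXC ligands carry 1 codon between the cysteines. Cxcl1 lies on the plus strand at chr5:90891484-90891516, Cxcl9 on the minus strand at chr5:92326830-92326862, Cxcl10 on the minus strand at chr5:92348169-92348201 and Cxcl12 on the plus strand at chr6:117171496-117171528. The stretch of Cxcl14 lies on the minus strand and spans an exon junction between chr13:56295903-56296113.
Cxcl1: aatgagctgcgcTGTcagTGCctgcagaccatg
Cxcl9: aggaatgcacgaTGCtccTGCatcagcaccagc
Cxcl10: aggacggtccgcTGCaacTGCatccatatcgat
Cxcl12: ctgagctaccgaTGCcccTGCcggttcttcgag
Cxcl14: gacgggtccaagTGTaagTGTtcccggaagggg

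The genes are clustered on the chromosomes, with 3 of the CC ligands on chromosome 11 and 4 of the genes on chromosome 5. Cxcl9 (5:92321347-92328079) and Cxcl10 (5:92346638-92348889) are neighbours with a gap of 18.6 kb. Ccl5 (11:83525778-83530518) and Ccl6 (11:83587882-83593087) are 57.4 kb apart, and Ccl9, a close relative of Ccl6, lies 9.25 kb from it. Ccr2 lies at 9:124101950-124113557. Fragments that map to several places were left out of the counts, so genes with a close copy, such as Cxcl1 with Cxcl2 or Ccl6 with Ccl9, may have lost or exchanged some fragments.

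The libraries held between 14275793 and 20815066 fragments counted on genes. Levels are given as CPM, counts scaled to the size of each library after TMM normalization. Within a diet group, the log2 CPM of pairs of mice correlated across genes with r between 0.933 and 0.987, and no libraries were duplicates. A liver weight was recorded in the study's supplement for VDD4, VDD5, VDD6, VDS3, VDS4, VDS5 and VDS6 and not for the other 5 mice, and libraries differed between these sets of mice. With the diet in the model, 306 of 12453 genes (2.46%) differed between the sets at an adjusted p under 0.05 (edgeR, Benjamini-Hochberg). The library of VDD2 had the highest level of the 12 mice for 18.6% of all genes tested and for 6 of the 9 tested here (Ccr2, Ccl5, Ccl6, Cxcl9, Cxcl10 and Cxcl14). For the 10 genes, values within the sets of mice are given too, and values without VDD2 where its level stood apart or was the highest.

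In the comparison of the diets, 7 of the 9 genes tested had higher levels in VDD-F1 and 2 lower, where 50.8% of all genes tested were higher. The median log2-fold change was 0.55 over the 9 genes and 0.00413 over all genes tested. Without VDD2 the median of the 9 was 0.26. None of the 9 passed an adjusted p-value of 0.05 with a log2-fold change above 1 or below -1 in edgeR's quasi-likelihood test, which called 5 of 12453 genes (0.0402%). At an unadjusted p under 0.05, 2 genes, Ccr2 and Ccl5, were higher in VDD-F1, where 9.55% of all genes were, and none was lower, where 6.29% of all genes were. Both genes passed the filter of a mean count of 12 only through VDD-F1, since their counts over the 6 VDS-F1 mice summed to only 60 (Ccr2) and 57 (Ccl5), so the count of 2 supports no statement about the 9 genes. DESeq2's Wald test called 1 of the 9, Ccr2, at the same thresholds, and 2.03% of all genes. The groups overlapped for all 9 genes, whereas 1.18% of all genes had groups that did not overlap. The median biological coefficient of variation was 0.360 over the 9 genes and 0.187 over all genes, and the lowest of the 9 was 0.183, in Cxcl12.

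**Figure D1:**
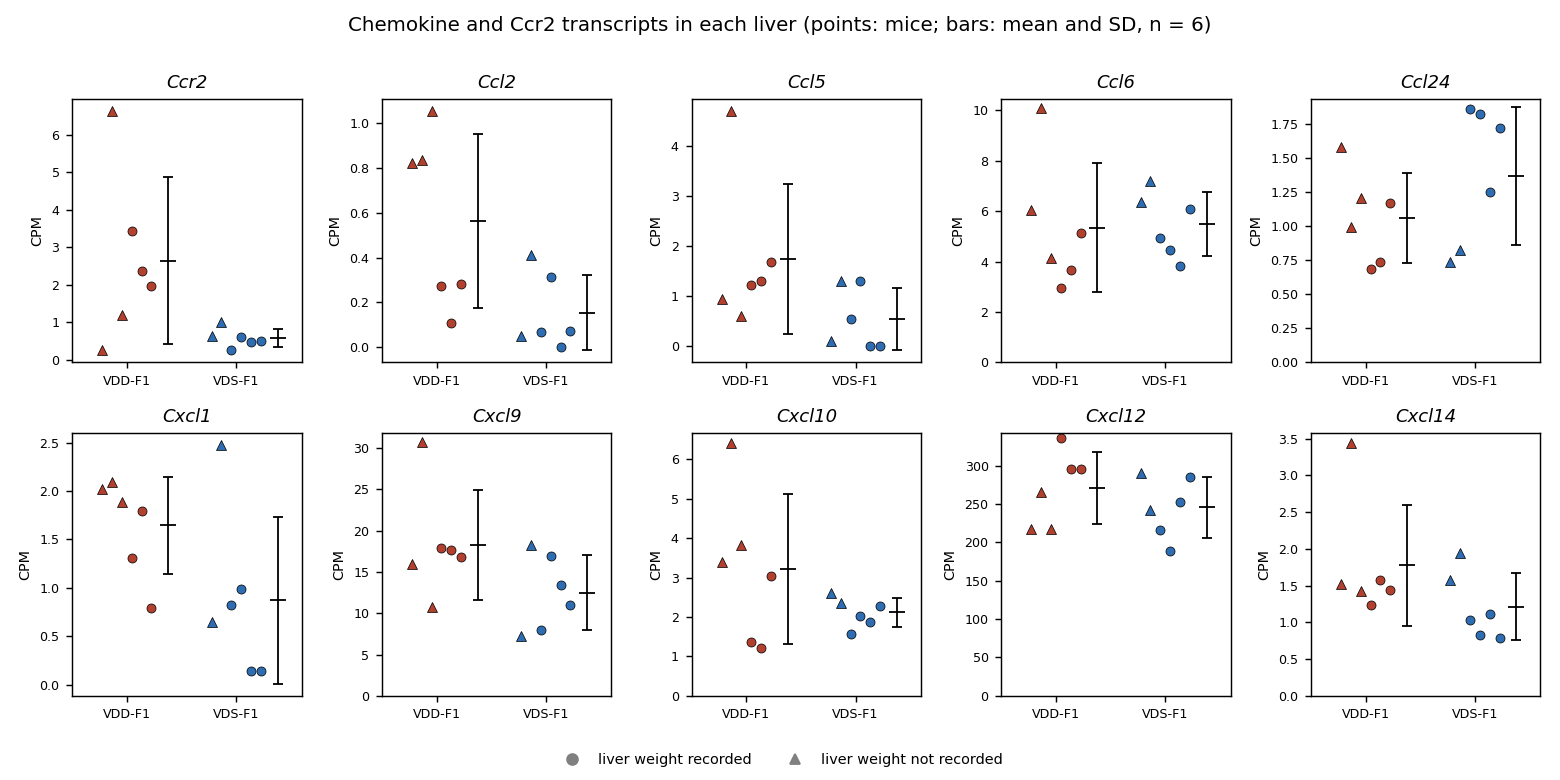
CPM of each of the 10 genes in each mouse, by maternal diet, where points are mice, circles mark mice with a recorded liver weight, triangles mark the others, and bars give the mean and SD of 6 mice. Ccr2 lies above 1.003 CPM, the highest VDS-F1 value, in 5 of 6 VDD-F1 mice, and VDD2 is the highest mouse in 6 of the 10 panels.

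The receptor Ccr2 had the largest fitted log2-fold change of the 9 genes tested. Its level was 0.253, 6.63, 1.21, 3.43, 2.37 and 1.96 CPM in VDD1 to VDD6, and 0.642, 1.003, 0.275, 0.624, 0.486 and 0.501 CPM in VDS1 to VDS6. The VDS-F1 mice were thus uniformly low, 5 of the 6 VDD-F1 mice lay above all of them, and VDD1 was the lowest of the 12 mice. The means were 2.64 ± 2.23 and 0.588 ± 0.242 CPM (SD, n = 6 each), and the fitted log2-fold change was 2.14 (SE 0.564, 95% interval 0.938 to 3.35), a 4.42-fold higher level in VDD-F1. The unadjusted p was 0.00187 and the adjusted p 0.100 in edgeR, and the adjusted p was 0.00813 in DESeq2. Without VDD2 the log2-fold change was 1.62, with an adjusted p of 0.202 in edgeR and 0.0653 in DESeq2, and without VDD1 it was 2.38, with an adjusted p of 0.0141 in edgeR, which then called 2.09% of all genes. The call thus differed between the tools and with the library of VDD2 or VDD1. In whole liver, a change in the number of Ccr2-bearing cells and a change in the RNA per cell cannot be told apart.

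Ccr2 was also compared within the sets of mice. Among mice with a recorded liver weight, it was 1.96 to 3.43 CPM in the 3 VDD-F1 mice and 0.275 to 0.624 CPM in the 4 VDS-F1 mice, groups that did not overlap, as for 23.4% of all genes in these 7 mice, with a log2-fold change of 2.41 and an adjusted p of 0.00196 (edgeR, which called 4.33% of all genes in these 7 mice). Among the other mice, it was 0.253 to 6.63 CPM in 3 VDD-F1 mice and 0.642 to 1.003 CPM in 2 VDS-F1 mice, with a log2-fold change of 1.73 and an adjusted p of 0.9998 (edgeR). Only VDD2, at 6.63 CPM, sets the direction there, since VDD1 at 0.253 CPM lay below both VDS-F1 mice and VDD3 at 1.21 CPM just above them. The difference between these effects had an unadjusted p of 0.571 in edgeR, and with this few mice that does not show that the effects were alike.

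Ccl2, the main ligand of Ccr2, was scarce. Its counts were 13, 16, 14, 4, 2 and 6 in VDD1 to VDD6 and 1, 7, 1, 6, 0 and 1 in VDS1 to VDS6, where 3 counts correspond to 0.140 to 0.226 CPM. Most VDS-F1 libraries were at 1 count or less, and the highest values were those of VDD1, VDD2 and VDD3, the 3 VDD-F1 mice without a recorded liver weight. The means were 0.562 ± 0.389 and 0.153 ± 0.168 CPM (SD, n = 6 each). The mean log2 CPM was higher in VDD-F1 by 1.31 with a prior count of 2 (two-sided exact permutation test over 924 splits, p = 0.0455, where the smallest possible p is 0.00217). Leaving out any of VDD1, VDD2, VDD3, VDS1, VDS3, VDS5 or VDS6 moved the exact p above 0.05, up to 0.0866. Within the sets, the difference was 0.66 with a recorded liver weight (3 against 4 mice, exact permutation p = 0.200) and 1.77 without (3 against 2 mice, exact permutation p = 0.100, the smallest possible). The order of the mice differed in the 2 genes: VDD3 was the highest for Ccl2 in CPM and VDD2 for Ccr2, VDD1 had 13 counts of Ccl2 and the lowest Ccr2, while VDD4, VDD5 and VDD6 had 2 to 6 counts of Ccl2 and Ccr2 above 1.9 CPM. At these counts the order of single mice in Ccl2 carries a large counting error.

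Ccl5, which attracts T cells and monocytes, had a lowest, median and highest level of 0.603, 1.27 and 4.70 CPM in VDD-F1 and of 0, 0.324 and 1.30 CPM in VDS-F1. VDD2 was far above the other mice, and VDS5 and VDS6 had no count, which with 3 counts as the limit allows up to 0.208 and 0.215 CPM. The log2-fold change was 1.66 (SE 0.761, 95% interval 0.0284 to 3.29), with an unadjusted p of 0.0466 and an adjusted p of 0.308 (edgeR). Without VDD2 it was 1.06, with an unadjusted p of 0.164 in edgeR. In the mice with a recorded liver weight it was 1.49 (unadjusted p = 0.0814 in edgeR), and in the other mice 1.62 (unadjusted p = 0.233 in edgeR). There VDD1 and VDD3, at 0.947 and 0.603 CPM, lay between VDS1 and VDS2, at 0.0987 and 1.30 CPM, and VDD2 alone lay above both.

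Ccl6 and Ccl24 showed no direction that held across the mice. Ccl6, a ligand of Ccr1 made by myeloid cells, was the most abundant of the 4 CC ligands, at 2.95, 4.64 and 10.1 CPM (lowest, median and highest) in VDD-F1 and 3.82, 5.51 and 7.20 CPM in VDS-F1. Its log2-fold change was -0.03 (SE 0.268, 95% interval -0.61 to 0.54, adjusted p = 0.972 in edgeR). Without VDD2 it was -0.32, and it was -0.28 with and 0.00673 without a recorded liver weight. Ccl24, an eosinophil attractant that acts through Ccr3, was at 0.687, 1.08 and 1.58 CPM in VDD-F1 and 0.740, 1.48 and 1.86 CPM in VDS-F1. Its log2-fold change was -0.36 (SE 0.316, 95% interval -1.04 to 0.32, adjusted p = 0.615 in edgeR). In mice with a recorded liver weight, Ccl24 was lower in all 3 VDD-F1 mice (0.687 to 1.17 CPM) than in all 4 VDS-F1 mice (1.25 to 1.86 CPM), as 23.4% of all genes were higher or lower throughout in these mice, with a log2-fold change of -0.92. In the other mice it was higher, at 0.992 to 1.58 CPM in 3 VDD-F1 mice and 0.740 to 0.826 CPM in 2 VDS-F1 mice, with a log2-fold change of 0.68.

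**Figure D2:**
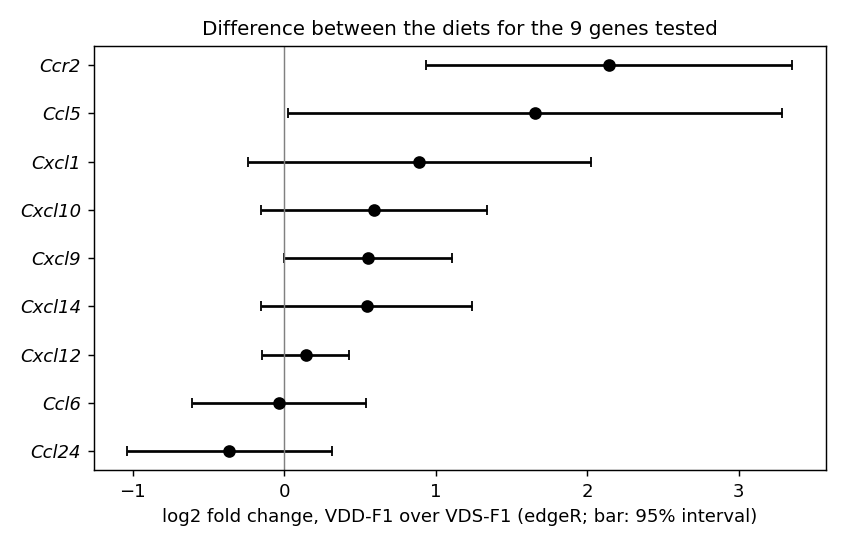
Fitted log2-fold change of VDD-F1 over VDS-F1 (x axis) for the 9 genes tested (y axis), with bars for the 95% interval of edgeR's fit over 12 mice. The intervals of Ccr2 and Ccl5 lie above 0, that of Cxcl9 reaches 0, and those of the other 6 genes cross it.

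Among the CXC ligands, Cxcl1, which attracts neutrophils through Cxcr2, was at 0.793, 1.83 and 2.09 CPM (lowest, median and highest) in VDD-F1 and 0.139, 0.733 and 2.48 CPM in VDS-F1. VDS2 was the highest of the 12 mice, and 3 VDS-F1 mice lay below all VDD-F1 mice. The log2-fold change was 0.89 (SE 0.529, 95% interval -0.24 to 2.03, unadjusted p = 0.113 and adjusted p = 0.432 in edgeR). Without VDS2 the log2-fold change was 1.54 (unadjusted p = 0.00602 and adjusted p = 0.142 in edgeR). It was 1.23 in the mice with a recorded liver weight and 0.37 in the others. Also without VDS2, 5 of the 9 genes were higher in VDD-F1 at an unadjusted p under 0.05 in edgeR, where 9.60% of all genes were, against 2 in all mice. Ccr2 and Ccl5, which passed the filter in all mice only through VDD-F1, were among the 5. VDS2 was the highest VDS-F1 mouse for Ccr2, Cxcl1, Cxcl9 and Cxcl14, so leaving it out lowers the VDS-F1 levels. The count of 5 thus supports no statement about the 9 genes.

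Cxcl9 and Cxcl10 are induced by interferons and attract T and NK cells through Cxcr3. Cxcl9 was at 10.8, 17.2 and 30.7 CPM in VDD-F1 and 7.26, 12.2 and 18.2 CPM in VDS-F1, with VDD2 far above the rest and the other mice largely overlapping. The log2-fold change of Cxcl9 was 0.55 (SE 0.260, 95% interval -0.00425 to 1.11, unadjusted p = 0.0516 and adjusted p = 0.319 in edgeR). Without VDD2 it was 0.34, and it was 0.49 with and 0.60 without a recorded liver weight. Cxcl10 was at 1.21, 3.22 and 6.42 CPM in VDD-F1 and 1.58, 2.16 and 2.62 CPM in VDS-F1. The VDS-F1 values of Cxcl10 lay close together, with 4 VDD-F1 mice above all of them and 2, VDD4 and VDD5, below all of them. The log2-fold change of Cxcl10 was 0.59 (SE 0.349, 95% interval -0.15 to 1.34, unadjusted p = 0.111 and adjusted p = 0.428 in edgeR). Without VDD2 it was 0.26, and it was -0.034 with and 0.88 without a recorded liver weight.

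Cxcl12, the ligand of Cxcr4 that keeps leukocytes in the marrow and is made by stromal cells and endothelium, was the most abundant of the 10 genes. It was at 217.4, 280.3 and 335.5 CPM in VDD-F1 and 188, 247 and 290 CPM in VDS-F1, with means of 271.2 ± 47.1 and 245.7 ± 39.4 CPM (SD, n = 6 each). Its log2-fold change was 0.14 with the smallest SE of the 9, 0.134, and a 95% interval of -0.14 to 0.43 (adjusted p = 0.641 in edgeR). In mice with a recorded liver weight it was 0.39 and in the others -0.19. Cxcl14, a ligand made by epithelia and stromal cells, was at 1.24, 1.48 and 3.44 CPM in VDD-F1 and 0.787, 1.07 and 1.95 CPM in VDS-F1, and VDD2 again stood apart. The fitted log2-fold change was 0.54 (SE 0.325, 95% interval -0.15 to 1.24, unadjusted p = 0.116 and adjusted p = 0.436 in edgeR). Without VDD2 it was 0.24, and it was 0.60 with and 0.29 without a recorded liver weight.

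For 4 of the ligands the log2-fold change between the sets of mice was larger than that between the diets. With the diet in the model, 4 of the 9 genes were lower in mice with a recorded liver weight at an unadjusted p under 0.05 in edgeR, where 7.99% of all genes were. These were Ccl6 (log2-fold change of recorded over not recorded -0.65, adjusted p = 0.181), Cxcl1 (-1.02, adjusted p = 0.346), Cxcl10 (-0.86, adjusted p = 0.179) and Cxcl14 (-0.74, adjusted p = 0.225), and none passed the adjusted p in edgeR. Cxcl10, for example, averaged 4.56 CPM in the 3 VDD-F1 mice without a recorded liver weight and 1.87 CPM in the 3 with it, while the VDS-F1 mice averaged 2.49 CPM (n = 2) and 1.94 CPM (n = 4). For Ccr2 the log2-fold change between sets was -0.36 (unadjusted p = 0.532 in edgeR), with 1 mouse, VDD2, far above the other two VDD-F1 mice without a recorded liver weight. The effect of the diet differed between the sets at an unadjusted p under 0.05 in edgeR for 2 of the 9 genes, where 9.01% of all genes did, and for none at an adjusted p under 0.05, where 0.0883% of all genes did. The 2 genes were Ccl24 (adjusted p = 0.391 in edgeR) and Cxcl12 (adjusted p = 0.453 in edgeR). Cxcl12 averaged 309 CPM in VDD-F1 and 235 CPM in VDS-F1 with a recorded liver weight, and 233 and 266 CPM without, so its direction turned. Red blood cell genes also differed between the sets: Hbb-bs, a beta globin, was lower with a recorded liver weight by a log2-fold change of -1.70 (adjusted p = 0.00671 in edgeR), and Hba-a1, an alpha globin, by -1.51 (adjusted p = 0.0161 in edgeR). The part of blood content in the chemokine values was not tested.

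Promoters were searched for the binding letters of factors that switch on chemokine genes in inflammation and for those of the vitamin D receptor. Promoter sequence was at hand in RefSeq (GRCm38.p6) for 7 of the 10 genes, from 250 bases before to 50 after the start. Both strands were searched for the NF-kB consensus, the ISRE core GAAANNGAA, the GAS core TTCNNNGAA and the VDR DR3 element. The NF-kB consensus was in 2 of the 7 windows (Cxcl1 and Cxcl10), and in 8.46% of the 32851 windows of the genome table. The ISRE core was in 4 (Cxcl9, Cxcl10, Cxcl14 and Ccr2) and in 8.56% of all windows, the GAS core in 1 (Cxcl14) and in 8.3% of all windows, and the VDR DR3 element in none and in 0.256% of all windows. For the CXC ligands with a match, the parts of the promoters that hold the matches are shown, because they place each match. The matched letters are in capitals, with 20 bases on either side. Cxcl12 had no match and is not shown. Neighbouring capitals in Cxcl1 and at the second NF-kB stretch of Cxcl10 are 2 overlapping matches.
Cxcl1: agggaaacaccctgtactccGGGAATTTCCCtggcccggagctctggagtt
Cxcl9: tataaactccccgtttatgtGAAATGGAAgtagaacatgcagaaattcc
Cxcl10: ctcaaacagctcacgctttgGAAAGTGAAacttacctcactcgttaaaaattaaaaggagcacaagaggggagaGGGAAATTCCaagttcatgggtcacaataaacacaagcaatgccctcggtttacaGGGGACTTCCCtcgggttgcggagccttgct
Cxcl14: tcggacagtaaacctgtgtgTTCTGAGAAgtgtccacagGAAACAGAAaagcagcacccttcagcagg
These stretches lie at chr5:90891154-90891204 on the plus strand for Cxcl1 and, on the minus strand, at chr5:92328226-92328274 for Cxcl9, chr5:92348963-92349122 for Cxcl10 and chr13:56296695-56296762 for Cxcl14. The stretch of Cxcl10 runs from an ISRE match at -213 through the NF-kB matches, the last of which ends at -94. A match describes the letters only and no binding was measured.

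Compared per length of the annotated exons, the levels over all 12 mice ranged from 60.3 TPM for Cxcl12 (a level scaled by length and by depth, ± 17.0 SD) to 0.501 TPM for Ccr2 (± 0.660). Below Cxcl12 came Cxcl9 at 10.1 TPM, Ccl6 at 5.92, Ccl5 at 2.57, Cxcl10 at 2.33, Ccl24 at 1.75, Cxcl14 at 1.63, Cxcl1 at 1.34 and Ccl2 at 0.618 TPM. Cxcl12 lay above Cxcl9, Ccl6 above Ccl5 and Cxcl1 above Ccl2 in 12 of 12 mice, and Cxcl9 above Ccl6 in 10. Neighbours in the run from Ccl5 to Cxcl1 could not be ordered, since each was above the next in only 6 or 7 of the 12 mice. Genes further apart in that run were not compared. Ccl2 was above Ccr2 in 5 of the 12 mice.

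Over the 12 mice, the genes whose log2 CPM was most like that of Ccr2 were Fam3c, which encodes a secreted protein (Pearson r = 0.979), Ehd2, an ATPase of caveolae (0.973), and Eid1, an inhibitor of differentiation (0.968), where the median over all genes was -0.016. For Ccl5 they were Rtn1 (0.931), Parvg (0.915) and Nin (0.906), for Cxcl1 Pyroxd1 (0.892), Gm34333 (0.889) and Mthfd2 (0.882), and for Cxcl10 Tlr7, a sensor of RNA (0.892), Usp18, which removes the interferon-induced modifier Isg15 (0.867), and Mppe1 (0.860). These correlations describe 12 points that share the library of each mouse with the sets and with VDD2.

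Of 29 other chemokine ligands, 7 passed the filter and none was called by edgeR. At an unadjusted p under 0.05 in edgeR, 3 were higher in VDD-F1 and 1 lower, where 9.55% and 6.29% of all genes were. The median log2-fold change of the 7 was -0.25, and DESeq2 called 1, Cx3cl1, and 2.03% of all genes. Cx3cl1, the membrane-bound fractalkine that holds Cx3cr1-bearing monocytes, was at 0.505, 7.52, 1.43, 2.75, 3.84 and 3.36 CPM in VDD1 to VDD6 and at 0.520 to 1.25 CPM in VDS-F1. As for Ccr2, 5 VDD-F1 mice lay above all VDS-F1 mice and VDD1 lay below them. Its log2-fold change was 1.95 (SE 0.491), with an adjusted p of 0.0958 in edgeR and 0.00654 in DESeq2, and without VDD2 it was 1.51, with an adjusted p of 0.187 in edgeR and 0.0418 in DESeq2. Without VDD1 it was 2.18, with an adjusted p of 0.0121 in edgeR, and in mice with a recorded liver weight it was 1.90, with 0.00331. In the other mice it was 2.11, with an adjusted p of 0.9998 in edgeR. Ccl9, a ligand of Ccr1, was at 30.9 to 99.3 CPM in VDD-F1 and 24.8 to 40.9 CPM in VDS-F1 (log2-fold change 0.85, adjusted p = 0.119 in edgeR). Without VDD2 it was 0.62. Cxcl16, the ligand of Cxcr6, was 5.50 to 17.3 CPM against 4.65 to 8.08 CPM (log2-fold change 0.63, adjusted p = 0.250 in edgeR), and without VDD2 the log2-fold change was 0.32.

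Cxcl13, which attracts B cells, went the other way, and passed the filter only through VDS-F1. It was at 2.08, 0.0522, 1.05, 0.343, 0.210 and 0.0933 CPM in VDD1 to VDD6 and at 1.28 to 3.60 CPM in VDS-F1, with a log2-fold change of -1.68 (SE 0.644, unadjusted p = 0.0202 and adjusted p = 0.229 in edgeR). Without VDD1, the highest VDD-F1 mouse, it was -2.61, with an adjusted p of 0.0319 in edgeR, and it was -1.43 both without VDD2 (unadjusted p = 0.0312 and adjusted p = 0.340 in edgeR) and without VDS2 (unadjusted p = 0.0526 and adjusted p = 0.310 in edgeR). In mice with a recorded liver weight it was -3.08 (adjusted p = 0.00146 in edgeR), in the others -1.20 (adjusted p = 0.9998 in edgeR), and with voom in all mice -2.73 (adjusted p = 0.0175), where voom called 2.02% of all genes. The mice VDD2, VDD4, VDD5 and VDD6, which were the highest for Ccr2, Cx3cl1 and Cx3cr1, were the lowest for Cxcl13. The remaining 22 ligands had mean counts under 12, and 6 of them (Ccl19, Ccl20, Ccl21a, Ccl26, Cxcl3 and Cxcl15) had no count in any library, where Ccl19 and Ccl21a have near-identical copies whose fragments would have been left out.

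**Figure D3:**
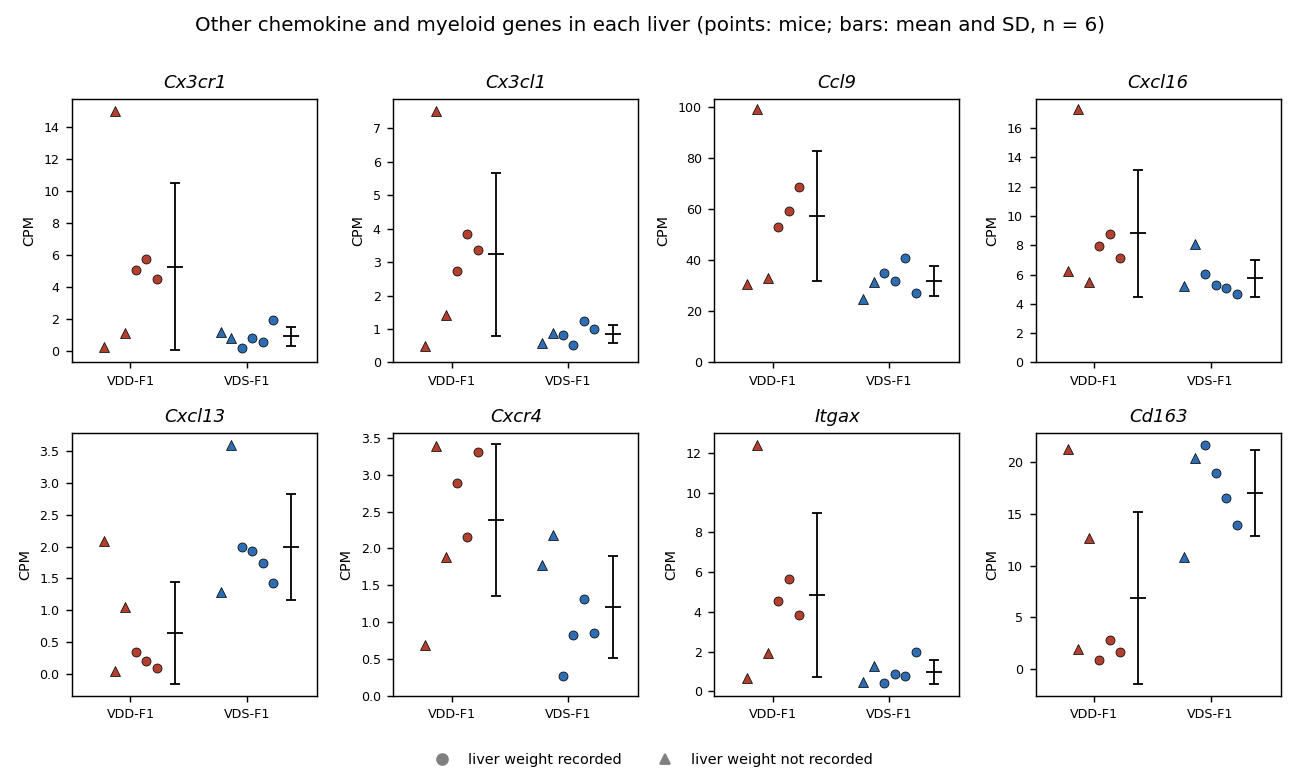
CPM of 8 other chemokine and myeloid genes in each mouse, by maternal diet, with points for mice (circles with and triangles without a recorded liver weight) and bars for the mean and SD of 6 mice. VDD1 lies with or below the VDS-F1 mice for Cx3cr1, Cx3cl1, Cxcr4 and Itgax, while VDD2, VDD4, VDD5 and VDD6 lie above them for Cx3cr1, Cx3cl1 and Itgax and below them for Cxcl13 and Cd163.

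Of 22 other chemokine receptors, 7 passed the filter and none was called by edgeR. All 7 had higher mean levels in VDD-F1 (median log2-fold change 0.80), where 50.8% of all genes tested were higher. The receptor with the median value had a mean count of only 14.9, near the filter. At an unadjusted p under 0.05 in edgeR, 3 were higher and none lower, where 9.55% and 6.29% of all genes were, and DESeq2 called 1, Cx3cr1, and 2.03% of all genes. This receptor of fractalkine on monocytes and some macrophages was at 0.253, 14.98, 1.13, 5.08, 5.73 and 4.48 CPM in VDD1 to VDD6 and at 0.206 to 1.93 CPM in VDS-F1. Its log2-fold change was 2.52 (SE 0.701), with an adjusted p of 0.113 in edgeR and 0.0358 in DESeq2, and without VDD2 it was 1.86, with an adjusted p of 0.231 in edgeR and 0.0786 in DESeq2. Without VDD1 it was 2.76, with an adjusted p of 0.0205 in edgeR, and in mice with a recorded liver weight it was 2.53, with 0.00421. In the other mice it was 2.45, with an adjusted p of 0.9998 in edgeR. Cxcr4, the receptor of Cxcl12, had a log2-fold change of 0.97 (adjusted p = 0.294 in edgeR), and without VDD2 of 0.85 (unadjusted p = 0.0837 in edgeR). In mice with a recorded liver weight that of Cxcr4 was 1.75 (adjusted p = 0.0165 in edgeR) and in the others 0.019 (adjusted p = 0.9998 in edgeR). Ccrl2, a receptor that binds chemerin without signalling, had a log2-fold change of 0.67 (adjusted p = 0.287 in edgeR), and without VDD2 of 0.59 (unadjusted p = 0.0755 in edgeR).

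Of 17 genes of leukocyte adhesion and transmigration, 13 were tested, and 6 were higher in VDD-F1 and none lower at an unadjusted p under 0.05 in edgeR, where 9.55% and 6.29% of all genes were. None was called by edgeR or DESeq2. Vcam1, the endothelial ligand of the integrin of monocytes and lymphocytes, was 14.8 to 34.8 CPM in VDD-F1 and 8.45 to 16.9 CPM in VDS-F1 (log2-fold change 0.71, adjusted p = 0.129 in edgeR). Selplg, the selectin ligand on leukocytes, had a log2-fold change of 0.75 (adjusted p = 0.228 in edgeR) and the integrin chain Itgb1 of 0.19 (adjusted p = 0.212 in edgeR). The median over the 13 genes was 0.24. Without VDD2, Vcam1 had a log2-fold change of 0.48 (unadjusted p = 0.00714 in edgeR) and Selplg of 0.38 (unadjusted p = 0.0585 in edgeR).

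Of 16 inducers of chemokine transcription (cytokines, their receptors and the transcription factors behind them), 13 were tested. At an unadjusted p under 0.05 in edgeR, where 9.55% of all genes were higher, 3 were: Tlr4, the endotoxin receptor (log2-fold change 0.81, adjusted p = 0.109 in edgeR), and the interferon gamma receptor chains Ifngr1 (0.52, adjusted p = 0.167 in edgeR) and Ifngr2 (0.50, adjusted p = 0.127 in edgeR). The median over the 13 genes was -0.00884, none was lower at that threshold, and none was called by edgeR or DESeq2. The cytokines Il6 and Ifng had no count in any library.

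Levels of cell type markers were read beside these genes. Of 14 monocyte markers, 10 were tested, and 3 were higher in VDD-F1 at an unadjusted p under 0.05 in edgeR, as were 9.55% of all genes. These were Itgax, the integrin of dendritic cells and some macrophages (log2-fold change 2.33, adjusted p = 0.0918 in edgeR and 0.00256 in DESeq2, and without VDD2 1.79, 0.177 and 0.0228), Ly6c2, the surface protein of classical monocytes (1.41, adjusted p = 0.222 in edgeR), which passed the filter only through VDD-F1, and Lyz2, the lysozyme of myeloid cells (0.76, adjusted p = 0.301 in edgeR, and without VDD2 0.31, with an unadjusted p of 0.211). The summed CPM of the 14 markers was 87.1 to 253 in VDD-F1 and 102 to 163 in VDS-F1, with medians of 117 and 118, and the highest value was that of VDD2. Without VDD1, Itgax had a log2-fold change of 2.56 and an adjusted p of 0.0148 in edgeR, and in mice with a recorded liver weight of 2.21 and 0.00425. In the other mice Itgax was at 2.51, with an adjusted p of 0.9998 in edgeR. Ly6c2 was at 0.253 to 3.08 CPM in VDD-F1 and 0.138 to 1.003 CPM in VDS-F1, with mean counts of 23.2 and 8.17. It was below the filter without VDD2, which held 59 of its 188 counts, and was not tested then. Of the monocyte markers, 4 had mean counts under 12 in all mice.

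Of 13 Kupffer cell markers, 12 were tested, and 4 were lower and none higher in VDD-F1 at an unadjusted p under 0.05 in edgeR, where 6.29% and 9.55% of all genes were. In all, 5 of the 12 had log2-fold changes above 0 (Marco 0.59, Adgre1 0.26, C1qa 0.14, C1qb 0.076 and C1qc 0.076), where 50.8% of all genes did. The median over the 12 was -0.10. Cd163, a scavenger receptor for haemoglobin, was at 21.3, 1.98, 12.7, 0.892, 2.84 and 1.63 CPM in VDD1 to VDD6 and at 10.8 to 21.7 CPM in VDS-F1 (log2-fold change -1.33, adjusted p = 0.302 in edgeR). The low VDD-F1 mice for Cd163 were those high in Ccr2. Folr2, a folate receptor (-0.81, adjusted p = 0.201 in edgeR), Timd4, a receptor for dying cells (-0.81, adjusted p = 0.235 in edgeR), and Clec4f, a lectin of Kupffer cells (-0.50, adjusted p = 0.249 in edgeR), were the other 3. Without VDD1, 2 of the 4 were called by edgeR, Cd163 (-2.14, adjusted p = 0.0421) and Folr2 (-1.07, adjusted p = 0.0441). In mice with a recorded liver weight, edgeR called Cd163 (-3.28, adjusted p = 3.84e-05), Folr2 (-1.43, adjusted p = 0.00252) and Timd4 (-1.13, adjusted p = 0.00704), whereas in the other mice Cd163 was at -0.39, Folr2 at -0.47 and Timd4 at -0.71, each with an adjusted p of 0.9998 (edgeR). Without VDD2, Cd163 had a log2-fold change of -1.13 with an unadjusted p of 0.0823 in edgeR. Without VDS2, 3 of the 4 missed an unadjusted p of 0.05 in edgeR, with 0.0714 for Cd163, 0.0811 for Timd4 and 0.0665 for Clec4f. The summed CPM of the 13 markers was 186 to 476 in VDD-F1 and 238 to 433 in VDS-F1.

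**Figure D4:**
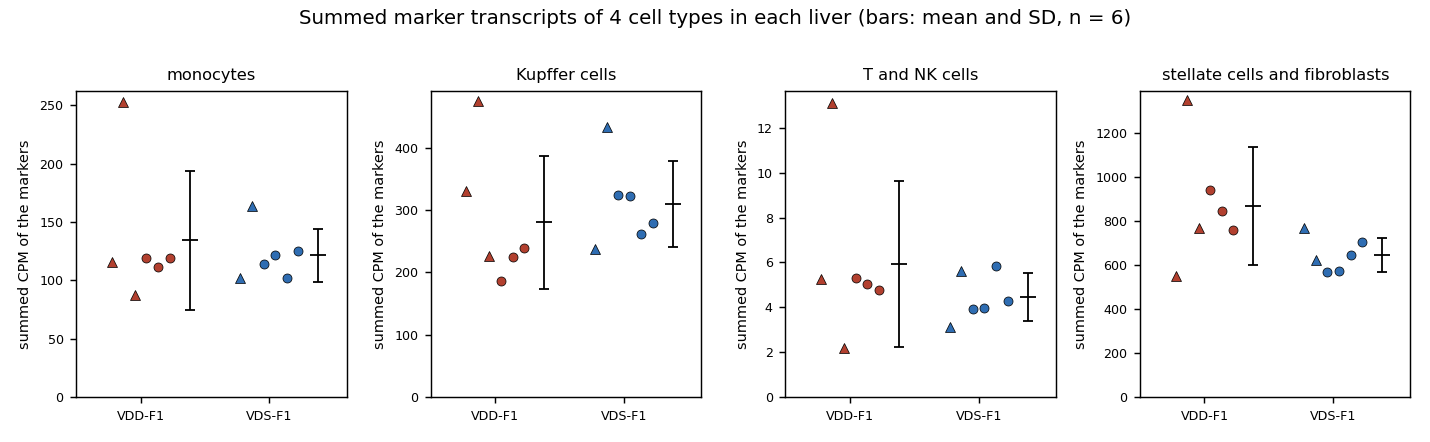
Summed CPM of the marker genes of 4 cell types in each mouse, by maternal diet, with points for mice (circles with and triangles without a recorded liver weight) and bars for the mean and SD of 6 mice. VDD2 is the highest mouse in all 4 panels, and the groups overlap in each.

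Of 12 stellate cell and fibroblast markers, all tested, 6 were higher and 1 lower in VDD-F1 at an unadjusted p under 0.05 in edgeR, where 9.55% and 6.29% of all genes were. DESeq2 called 2.03% of all genes and 2 of these markers, the fibrillar collagens Col1a1 (log2-fold change 2.27, adjusted p = 0.0883 in edgeR and 0.00825 in DESeq2) and Col3a1 (1.78, adjusted p = 0.0855 in edgeR and 0.00756 in DESeq2). Without VDD1, edgeR called both collagens, Col1a1 with an adjusted p of 0.00838 and Col3a1 with 0.00870, and without VDD3 it called Col3a1 with 0.0482. Without VDD2, Col1a1 had a log2-fold change of 1.81 (adjusted p = 0.163 in edgeR) and Col3a1 of 1.42 (adjusted p = 0.139 in edgeR). In mice with a recorded liver weight edgeR called both collagens and Ecm1 (-1.22, adjusted p = 6.68e-05), and in the other mice none of the 3 (Col1a1 1.71, Col3a1 1.24 and Ecm1 -0.26, each with an adjusted p of 0.9998). The matrix proteoglycan Bgn was higher by 0.79 (adjusted p = 0.125 in edgeR) and Ecm1 had a log2-fold change of -0.72 (adjusted p = 0.100 in edgeR). The sum of these markers was 550 to 1350 CPM in VDD-F1 and 566 to 765 CPM in VDS-F1. Only 2 of 12 T and NK cell markers and 1 of 11 neutrophil markers were tested: Cd4 was lower (-0.91, adjusted p = 0.118 in edgeR), while Cd3e (0.61, adjusted p = 0.692 in edgeR) and the neutrophil receptor Csf3r (0.37, adjusted p = 0.733 in edgeR) had wide errors. The 12 T and NK cell markers summed to 2.18 to 13.1 CPM in VDD-F1 and 3.11 to 5.83 CPM in VDS-F1, with medians of 5.14 and 4.12 CPM. The highest sum was that of VDD2, and the next in VDD-F1 was 5.29 CPM, in VDD4. Of the 10 markers too low to be tested, 9 had a higher mean CPM in VDD-F1. At a few counts a single library can set such a mean, and the same share over all genes too low to be tested was not computed. The neutrophil markers summed to 1.81 to 11.5 CPM in VDD-F1 and 0.619 to 6.94 CPM in VDS-F1.

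Of the other lists, 3 of 6 cholangiocyte markers tested were higher at an unadjusted p under 0.05 in edgeR, as were 9.55% of all genes (Epcam 1.06, Spp1 0.83 and Sox9 0.52 in log2-fold change). Without VDD2, none of them passed that threshold in edgeR (Epcam 0.65, Spp1 0.47 and Sox9 0.40, with unadjusted edgeR p-values of 0.149, 0.133 and 0.123). Of 10 endothelial markers, 1 was higher (Lyve1, 0.39) and 2 lower (Clec4g, -0.28, and Stab2, -0.25), as were 6.29% of all genes. Of 9 hepatocyte markers, 2 were lower, Serpina1c (-0.60) and Hnf4a (-0.29), of which Hnf4a had an unadjusted p of 0.0829 in edgeR without VDD2, as Lyve1 had one of 0.0888. Alb, the defining gene of hepatocytes, stood at 55810 CPM or more in every mouse. None of the 7 red blood cell genes differed between the diets at that threshold. None of the genes in these 4 lists was called by edgeR or DESeq2 in all mice, and in mice with a recorded liver weight edgeR called Epcam (1.32, adjusted p = 0.0133), which in the other mice was at 0.68 (adjusted p = 0.9998 in edgeR). The part of cell composition, the set of mice or the library of VDD2 in the chemokine differences was not tested beyond the values given here.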

How the data were processed

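RNA-seq libraries, depleted of ribosomal RNA, were made from the liver of 12 mice. The authors aligned the reads to mm10 with STAR, and the deposited values are unnormalized counts of fragments for each gene. The reverse-strand count was used, which held 92.7% to 95.8% of the stranded counts. Fragments outside genes (2.52% to 11.1%) stayed out of library sizes. Identifiers were matched to symbols in GENCODE M21 on GRCm38 (52489 of 52636 genes), where the study used an earlier release.

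Genes averaging 12 counts or more per library were tested in R 4.3.3 with edgeR 4.0.16 (TMM, quasi-likelihood test in the legacy form) and Benjamini-Hochberg adjustment over all genes tested. DESeq2 1.42.0, the study's tool, and voom in limma 3.58.1 were alternatives, as were other filters, scalings and strands, the set of mice, each mouse left out and a replicate block. A gene was called at an adjusted p under 0.05 where its log2-fold change also lay outside -1 to 1. Ccl2 was tested with an exact permutation test of log2 CPM with a prior count of 2. Dixon's test, motif counts and plots used Python 3.11.15, NumPy 2.4.6, SciPy 1.17.1, pandas 2.3.3 and matplotlib 3.10.9. TPM used the length of all exons of a gene. The fits were also run on simulated data, with the outcome not given here. Floors of 3 counts cover counting error only.

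The genes and lists were chosen with earlier results of these data known. Named beside the 10 genes were, from each list, called genes and up to 4 genes with the smallest unadjusted p, the 3 genes most correlated with Ccr2, Ccl5, Cxcl1 and Cxcl10, and the defining marker of the tissue. Some genes that this rule names are not reported here. The hepatocyte list had 10 genes, of which 9 were analysed here.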

Additional observations from a re-analysis of the deposited data

Results flagged for a closer look

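Of 110 groups of 6 mice, 21 held a mouse that Dixon's test at 95% placed apart from the others, and 12 of the 21 were VDD2. Chance alone gives about 1 in 20 for independent groups of normally distributed values. These groups share the same libraries and CPM values are skewed, so that rate is only a rough guide here. Of the 20 groups of the 10 chemokine genes, 4 were so placed. VDD2 was highest for Ccl5 (4.70 CPM, next 1.68), Cxcl9 (30.7 CPM, next 17.8) and Cxcl14 (3.44 CPM, next 1.58), and VDS2 for Cxcl1 (2.48 CPM, next 0.988). Among other chemokine genes, VDD2 was highest for Cxcl16 (17.3 CPM) and Cx3cr1 (14.98 CPM), VDS2 for Cxcl13 (3.60 CPM) and VDS1 for Ackr3 (2.07 CPM). VDD2 also stood above its group for Vcam1 (34.8 CPM), Selplg (10.3 CPM), Tlr2 (8.66 CPM), Lyz2 (107 CPM), Spn (3.50 CPM) and Cd3e (3.55 CPM), and below it for Serpina1c (1792 CPM). In VDS-F1, VDS4 was highest for Ifngr2 (22.9 CPM), VDS2 for Lyz2 (37.8 CPM) and Timd4 (9.44 CPM), VDS6 for Spn (1.43 CPM), and VDS1 for Col3a1 (60.9 CPM). VDD1 was lowest for Oit3 (18.0 CPM).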

How the results depend on the processing

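The log2-fold change of Ccr2 kept its direction under every alternative run, between 1.62 (without VDD2) and 2.41 (mice with a recorded liver weight). The number of genes called in the comparison of the diets was 5 and depended strongly on the setting: 253 with DESeq2, 17 with edgeR's newer form, 252 with voom, 70 with no filter beyond 1 count, 21 with the recorded liver weight as a covariate, 536 in mice with a recorded liver weight and 0 in the others. DESeq2 called 297 with a total count of 12 as the filter, 283 with the covariate and 114 without VDD2, settings that were chosen after seeing the data, as were the values of Ccl2 within the sets. Leaving out each mouse gave 0 to 260 calls, the highest without VDD1. The cause was not tested. Of the chemokine genes, 1 (Ccr2) was called with DESeq2 in each of its forms on all mice and in mice with a recorded liver weight, and 0 to 1 with each mouse left out. Ccr2 was called without VDD1 and in no other fit that left out a mouse.

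Higher in VDD-F1 at an unadjusted p under 0.05 were 2 chemokine genes, 5 with voom, 4 with a total count of 12 or no filter (also 4 in DESeq2 with that total, and in these fits Ccl2 was among the genes tested), 1 with the covariate, 0 in mice without a recorded liver weight, 1 in DESeq2 without VDD2, and 1 to 5 with each mouse left out (5 without VDS2). The share of all genes was 9.55% in the main comparison, 12.3% with voom, 8.94% and 8.16% with the lower filters (9.01% in DESeq2), 9.64% with the covariate, 2.05% in mice without a recorded liver weight, 7.04% in DESeq2 without VDD2 and 7.24% to 11.01% with each mouse left out. Ccr2 and Ccl5, which were among those counted in all mice and without VDS2, passed the filter in all mice only through VDD-F1. Lower was 1 gene, Ccl24, in mice with a recorded liver weight. For Ccl2, the difference in log2 CPM was 0.665 with and 1.77 without a recorded liver weight, both with an exact permutation p above 0.05, and 1.10 to 1.58 with each mouse left out. With the replicate number as a block, edgeR called 17 genes, none of the chemokine genes was among them, and 4 were higher at an unadjusted p under 0.05, where 8.26% of all genes were. Equal numbers mark different mice, whose deviations from the group means correlated by -0.0762 to 0.103, so the number does not pair them.

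Directions turned in mice without a recorded liver weight for Ccl6 (log2-fold change 0.00673), Ccl24 (0.68), Cxcl12 (-0.19), Stab2 (0.11), Ass1 (-0.034) and Hnf4a (0.071), and in mice with it for Cxcl10 (-0.034), Cd3e (-0.36), Hbb-bs (0.039) and Slc4a1 (0.060). They also turned with voom for Hbb-bs (0.065) and Slc4a1 (0.40), and in DESeq2 without VDD2 for Tlr2 (-0.027) and Cd3e (-0.0528). With each mouse left out, Ccl6 ranged from -0.32 to 0.088, Tlr2 from -0.0212 to 0.63, Cd3e from -0.032 to 0.83 and Hbb-bs from -0.49 to 0.29. What depth adds to the errors of the fold changes was not tested.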
